A study of Mus musculus with 9 samples.

Results

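Immortalized mouse macrophages were left unstimulated or exposed to bacterial lipopolysaccharide for 30 min, and the comparison of these groups over all measured genes is described here. It uses 6 of the 9 RNA libraries of the series. The unstimulated group (0 min) held 3 libraries and the 30 min group held 3, and 3 libraries taken after 60 min were used for the shared estimate of spread and for the later course of single genes. All cells were of 1 wild-type immortalized line, named IMM in the labels, grown in supplemented DMEM (cDMEM, with heat-inactivated serum and HEPES), and the stimulated cells received LPS at 100 ng/mL. Total RNA was depleted of ribosomal RNA before stranded library preparation, so transcripts without a poly(A) tail and intron-containing transcripts could be sequenced. The replicates are biological replicates by their labels alone. If they shared a thaw or a culture, the p-values measure only the spread between these dishes. No unstimulated library was taken at 30 min, so exposure to LPS, handling and elapsed time cannot be told apart.

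Lipopolysaccharide, a component of the outer membrane of Gram-negative bacteria, is bound by CD14 and MD-2 and signals through Toll-like receptor 4. MyD88 and the IRAK and TRAF proteins activate the IKK and MAP kinases. These release NF-kB from its IkB inhibitors and phosphorylate factors bound at serum-response, AP-1 and CRE elements. The first genes transcribed in macrophages, known as primary or immediate-early response genes, need no new protein synthesis. Many of them are short, and many of their transcripts are short-lived. Their products include transcription factors, cytokines and chemokines, and inhibitors that limit the same pathways.

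Levels are in CPM, meaning counts divided by the TMM-scaled total of the library so that libraries are comparable, and a gene was called higher or lower when edgeR's quasi-likelihood test gave an adjusted p under 0.05. The 6 libraries held 26867428 to 29808689 counts. On the first principal component (44.2% of the variance over all 9 libraries) the 0 min libraries lay between −34.8 and −31.6 and the 30 min libraries between 0.17 and 9.22. Markers of the macrophage lineage summed to 1940 to 2015 CPM at 0 min and 2098 to 2116 CPM at 30 min, and 1 of 10 was called. That marker was Cd14, whose rise is given below and adds to the sum at 30 min. The macrophage label was matched by these levels, while the 5 mast cell markers had no count in any of the 6 libraries. The summed levels of neutrophil markers were 5.76 to 6.97 CPM at 0 min and 5.71 to 6.19 CPM at 30 min, with 4 of 8 at 0. Dendritic cell markers summed to 16.9 to 17.8 and 16.5 to 18.4 CPM, T cell markers to 3.01 to 3.47 and 3.61 to 4.05 CPM, and endothelial markers to 9.70 to 13.9 and 13.7 to 15.9 CPM. No tested member of the neutrophil, dendritic, T cell or endothelial lists was called. B cell and fibroblast markers stayed below 1 CPM in sum, and epithelial markers reached 0.0694 CPM in sum. In bulk RNA, fewer cells with a transcript and less of it per cell cannot be told apart.

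After 30 min the macrophages held more RNA for immediate-early transcription factors, for inhibitors of NF-kB and MAP kinase signalling, and for a set of cytokines and chemokines. Of 14246 genes tested, 1166 (8.18%) were called, 689 higher (4.84%) and 477 lower (3.35%). Scaled by library totals alone, the split was 551 higher and 649 lower, so higher calls made up 45.9% of all calls there and 59.1% with TMM scaling. The median log2 difference of all tested genes was 0.01.

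The rises were larger than the falls. At least 2-fold differences were called for 201 genes higher (1.41%) and 59 lower (0.414%). The 59 became 121 with no filter on low counts and 23 with a minimum count of 50, and the 477 genes called lower became 757 with no filter and 290, 310 and 305 without 0 min replicate 1, 30 min replicate 2 and 30 min replicate 3. At least 4-fold, there were 94 higher and 7 lower, and at least 32-fold 13 higher and 0 lower. The median fold of all called genes was 1.42 for those higher and 1.36 for those lower. These 201 risers had a median of 1.81 CPM at 0 min, against 18.9 CPM for all tested genes and 1.31 CPM for the 59 that were lower by at least 2-fold, and 78 of them (38.8%) lay under 1 CPM, against 13.6% of all tested genes. Together they held 0.210%, 0.204% and 0.218% of the counts of the unstimulated libraries and 0.951%, 0.738% and 0.762% of those at 30 min. The choice of these genes fixes that the stimulated libraries lie higher, and among them replicate 1 held the largest share.

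**Figure D1:**
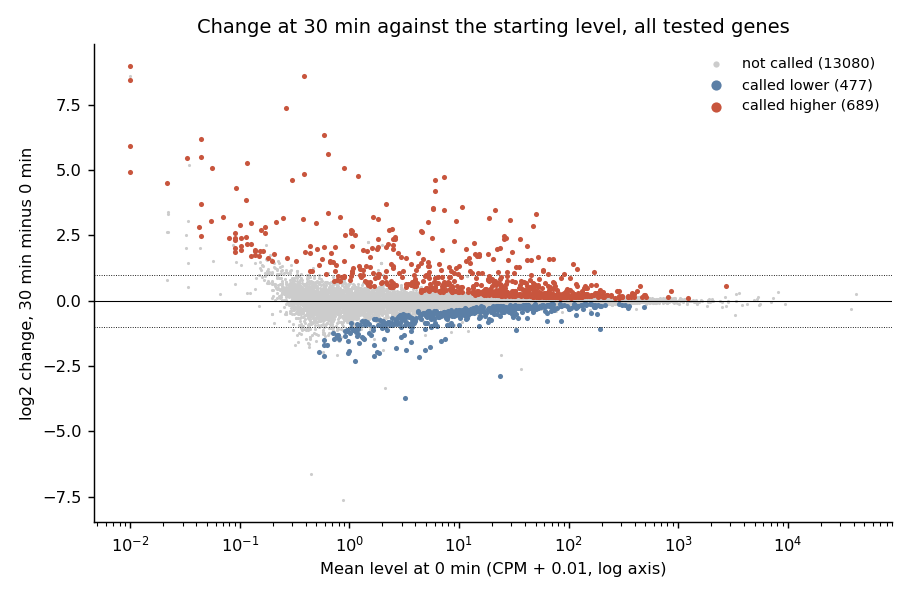
Log2 difference between 30 and 0 min (y axis) against the mean level at 0 min (x axis, CPM + 0.01, log scale) for the 14246 tested genes, 1 point a gene, with called genes in color. The 201 risers past 2-fold lie mostly at the left, with a median of 1.81 CPM at 0 min, and 59 of the 477 called falls pass a 2-fold difference.

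The largest rise among coding genes of at least 5 CPM at 30 min was that of Cxcl2, a chemokine that attracts neutrophils. Cxcl2 measured 0.403, 0.387 and 0.324 CPM in the unstimulated libraries and 186, 120 and 129 CPM at 30 min. Every stimulated library was thus far above every unstimulated one, and the fitted log2 difference was 8.60 (SE 0.25, edgeR adjusted p = 2.53e-11, n = 3 per time). Il1b, which encodes the pro-form of interleukin 1 beta, measured 0.293, 0.141 and 0.324 CPM at 0 min and 69.2, 27.5 and 33.5 CPM at 30 min. It differed by 7.39 on the log2 scale (SE 0.55), with the largest error of the leading genes, and replicate 1 lay at more than double the others. Fosb, an AP-1 subunit, measured 0.843, 0.351 and 0.552 CPM and then 50.5, 45.4 and 45.4 CPM, a log2 difference of 6.34 (SE 0.12). Ccrl2, a non-signalling receptor that binds chemerin, went from 0.843, 0.597 and 0.454 CPM to 39.7, 26 and 27.5 CPM, a log2 difference of 5.63 (SE 0.22). In all 4 genes the lowest stimulated library lay far above the highest unstimulated one.

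**Figure D2:**
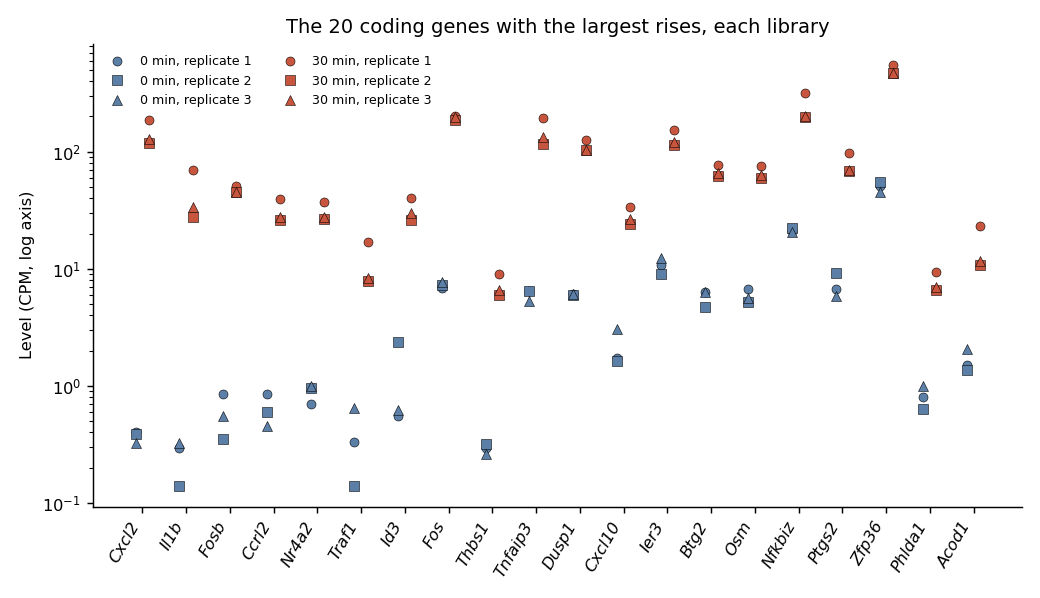
Level of the 20 coding genes with the largest rises, among those of at least 5 CPM at 30 min, in each of the 3 unstimulated (blue) and 3 stimulated (red) libraries, in CPM on a log axis, with the shape giving the replicate. The groups do not overlap for any of the 20, nor for 688 of all 689 genes called higher, so this follows from the choice of genes. The circle of 30 min replicate 1 is the top red point of each.

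The promoters of 6 of the rising genes are shown because their letters hold motifs of the factors that LPS signalling is known to activate. Each run starts 250 bases before the RefSeq start site of GRCm38.p6 and ends at the start site or before the first annotated exon base, 5′ to 3′ on the strand of the gene. Capitals mark an NF-kB motif in Cxcl2, Cxcl10 and Nfkbia, a CArG box (the motif of serum response factor) in Dusp5, and the CRE motif TGACGTCA in Dusp1 and Btg2. Both strands were searched, and a match is a description of the letters only.
Cxcl2: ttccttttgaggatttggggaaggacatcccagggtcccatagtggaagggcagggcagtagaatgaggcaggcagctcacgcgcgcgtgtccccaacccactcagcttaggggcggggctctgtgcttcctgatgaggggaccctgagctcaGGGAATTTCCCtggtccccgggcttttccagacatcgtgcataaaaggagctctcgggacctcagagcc
Cxcl10: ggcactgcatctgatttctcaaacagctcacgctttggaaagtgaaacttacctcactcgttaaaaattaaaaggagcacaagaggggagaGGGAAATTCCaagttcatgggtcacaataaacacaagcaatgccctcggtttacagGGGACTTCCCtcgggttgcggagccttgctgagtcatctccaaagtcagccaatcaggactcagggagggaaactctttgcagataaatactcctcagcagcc
Nfkbia: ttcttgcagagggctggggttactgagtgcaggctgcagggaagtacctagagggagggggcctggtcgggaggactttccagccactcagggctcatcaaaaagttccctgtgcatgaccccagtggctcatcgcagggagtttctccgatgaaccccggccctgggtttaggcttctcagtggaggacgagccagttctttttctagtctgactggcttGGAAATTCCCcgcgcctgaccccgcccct
Dusp5: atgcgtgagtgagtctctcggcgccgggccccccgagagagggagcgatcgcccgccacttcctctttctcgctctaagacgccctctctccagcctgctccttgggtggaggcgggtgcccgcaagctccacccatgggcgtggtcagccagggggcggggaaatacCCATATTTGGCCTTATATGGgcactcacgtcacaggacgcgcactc
Dusp1: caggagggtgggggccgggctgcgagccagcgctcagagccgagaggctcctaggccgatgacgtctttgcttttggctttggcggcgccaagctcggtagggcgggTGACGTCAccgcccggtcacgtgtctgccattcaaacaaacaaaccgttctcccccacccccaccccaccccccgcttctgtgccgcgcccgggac
Btg2: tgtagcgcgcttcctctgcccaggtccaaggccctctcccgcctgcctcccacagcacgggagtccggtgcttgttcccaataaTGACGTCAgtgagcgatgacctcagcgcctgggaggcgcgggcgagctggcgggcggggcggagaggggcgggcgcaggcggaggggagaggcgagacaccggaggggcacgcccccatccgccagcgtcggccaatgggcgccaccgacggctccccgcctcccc
The positions are chr5:90903649-90903870 (plus strand) for Cxcl2, chr5:92348890-92349139 (minus) for Cxcl10, chr12:55492648-55492897 (minus) for Nfkbia, chr19:53528895-53529108 (plus) for Dusp5, chr17:26508520-26508722 (minus) for Dusp1 and chr1:134079156-134079405 (minus) for Btg2.

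Counted from the start site, the Cxcl2 matches lay at −97 to −88 and −96 to −87 and overlapped, the Cxcl10 matches at −159 to −150 and −103 to −94, and the Nfkbia match at −29 to −20. Dusp5 held adjoining CArG boxes at −82 to −73 and −72 to −63. The CRE lay at −143 to −136 in Dusp1 and at −166 to −159 in Btg2. Among 32817 RefSeq promoters of the same length, 3.90% held an NF-kB match, 1.47% a CArG box and 1.55% a CRE. These 6 were picked for their matches, and no share over all rising genes is given because only 92 of the 125 coding risers past 2-fold (73.6%) had an entry in the promoter table.

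Of 17 genes of the LPS receptor complex and its adaptors, 1 rose and 0 fell, a share near the 4.84% of all tested genes, with a median log2 difference of 0.04. Tlr4 itself measured 86.4, 87.5 and 96.4 CPM at 0 min and 93.8, 93.6 and 91.7 CPM at 30 min, so the groups overlapped and it was not called (log2 difference 0.05, SE 0.05). The member that rose was Cd14, the co-receptor that delivers LPS, from 21.4, 21.5 and 24.1 CPM to 104, 80.3 and 82.5 CPM, a log2 difference of 1.99 (SE 0.09). Of 14 other Toll-like and pattern receptors, 4 rose and 1 fell, and the median was 0.13; the number that fell was 0 with a replicate block and without 0 min replicate 1 or any 30 min replicate, and 2 without 0 min replicate 3, with no filter, with a minimum count of 50 and under scaling by totals. Clec4e, the C-type lectin Mincle, measured 29.8, 26.4 and 30.7 CPM and then 327, 203 and 219 CPM (log2 difference 3.11). Nlrp3, the inflammasome sensor, rose by 1.87 and Tlr2, the receptor for bacterial lipoproteins, by 1.58 on the same scale. Of 26 IKK and MAP kinase cascade genes 3 rose and 0 fell, with a median of 0.06. Map3k8 (Tpl2, the kinase upstream of MEK) differed by 0.56, Map2k3 (a p38 kinase kinase) by 0.23 and Mapkapk2 (a kinase activated by p38) by 0.16.

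Most genes of the IkB family rose, and so did part of the NF-kB subunits. Of the 5 NF-kB subunit genes 3 rose, namely Relb (log2 difference 0.78), Nfkb2 (0.62) and Rel (0.41), and Rela and Nfkb1 were not called. Nfkb1, which encodes p105 and p50, measured 97.7, 93.4 and 96.2 CPM at 0 min and 98.8, 97.7 and 95.9 CPM at 30 min. Of the 6 IkB family genes 5 rose, with a median log2 difference of 1.81 against 0.01 for all genes tested. Nfkbia, which encodes the inhibitor IkB-alpha and whose promoter is printed above, measured 18.0, 19.7 and 19.1 CPM and then 209, 145 and 149 CPM (log2 difference 3.15, SE 0.12, edgeR adjusted p = 2.98e-10). Nfkbiz, the atypical nuclear IkB-zeta needed for a secondary set of LPS genes, rose from 21.1, 22.4 and 20.6 CPM to 316, 197 and 201 CPM (log2 difference 3.48). Nfkbie rose by 2.65 and Nfkbid by 0.96, and Nfkbib was not called. The fifth riser, Bcl3, was called with a difference of 0.63, a call that was lost without 0 min replicate 3.

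Of 18 ubiquitin regulators of the pathway 7 rose and 0 fell, with a median of 0.15. Tnfaip3 encodes A20, a ubiquitin-editing enzyme that limits NF-kB signalling. It measured 6.45, 6.50 and 5.26 CPM at 0 min and 195, 116 and 132 CPM at 30 min, a log2 difference of 4.61 (SE 0.19). Traf1, a TNF receptor adaptor, rose by 4.84, Tnip3 (an A20-binding protein) by 2.13, Birc3 (the ubiquitin ligase cIAP2) by 0.93 and Rnf19b by 0.42.

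Part of the members of each classical immediate-early family rose. Of 9 tested Fos and Jun genes 6 rose and 0 fell, all 6 by at least 2-fold, with a median of 1.39. Fos measured 6.82, 7.27 and 7.76 CPM and then 203, 187 and 200 CPM, a log2 difference of 4.75 (SE 0.14) with a small spread in both groups. Jun, a gene of 1 exon, was already at 115, 106 and 108 CPM and reached 310, 277 and 279 CPM (log2 difference 1.39). Fosl2 rose by 2.34, Junb by 2.08 and Jund by 1.06. Of 11 ATF and CREB genes 4 rose, and 2 were called with limma-voom or without 0 min replicate 1 or 2 or 30 min replicate 1. Atf3, a stress-induced repressor of cytokine genes, went from 32.5, 31.5 and 31.1 CPM to 68.9, 62 and 65.5 CPM (log2 difference 1.05).

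Of 14 tested genes of the Egr, Ier and serum-response list 8 rose and 0 fell, with a median of 0.80. Ier3, a short stress-response gene of 1.24 kb, measured 10.7, 9.10 and 12.4 CPM and then 152, 114 and 121 CPM (log2 difference 3.58). Phlda1 rose by 3.21, Csrnp1 by 2.63, Egr2 by 1.96, Ier2 by 1.73 and Egr3 by 1.33. Egr1 is usually a leading immediate-early gene, but in this line it had 18 counts over the 3 unstimulated libraries and 34 over the 3 stimulated ones and was not called. Of 12 nuclear receptors 4 rose and 1 fell, a fall that was lost without 0 min replicate 1 or 2 or 30 min replicate 3. The 3 NR4A orphan receptors were among the risers, with Nr4a2 at 0.697, 0.949 and 1.01 CPM at 0 min and 37.0, 26.8 and 27.5 CPM at 30 min (log2 difference 5.09, SE 0.18). Nr4a3 rose by 5.27 from 9 counts in all to 355, and Nr4a1 by 1.05 from a higher level of 17.2, 16.3 and 14.8 CPM.

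The rises in other transcription factor families were mostly below 2-fold. Of 10 Kruppel-like factors 8 rose, and 1 of them by at least 2-fold, with a median of 0.51. Klf2 rose by 1.25, Klf10 by 0.81, Klf6 by 0.72, Klf4 by 0.63, Klf11 by 0.61 and Klf9 by 0.40. Of 13 genes of the Id, Hes, Bhlhe and Myc network 9 rose, with a median of 0.61. Id3, an inhibitor of E-protein factors, measured 0.550, 2.39 and 0.617 CPM and then 40.3, 26.2 and 29.6 CPM (log2 difference 4.76), with unstimulated replicate 2 above its group. Id2 rose by 2.41, Mxd1 by 1.13, Hes1 by 0.89 and Bhlhe40 by 0.61. Myc had 0 counts at 0 min and 9, 9 and 4 counts at 30 min. The ratio was 7.32 with 3 counts over the unstimulated group taken as the floor, and the 95% counting interval for the pooled counts began at 5.46.

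Among 10 Maf and C/EBP factors 3 rose and 2 fell, and 1 fell without 0 min replicate 1 or 2 or 30 min replicate 1 or 3. Cebpb, which encodes a factor of macrophage differentiation and inflammation, went from 99.2, 100 and 108 CPM to 200, 183 and 181 CPM (log2 difference 0.88), and Maff rose by 2.73. Cebpd moved the other way, from 10.1, 9.59 and 9.57 CPM to 6.50, 7.35 and 6.68 CPM, and fell by 0.51 on the log2 scale (SE 0.09, edgeR adjusted p = 0.00165). Of 10 genes in the list of interferon regulatory factors 2 rose, and the median was 0.02. Irf1 measured 12.9, 11.5 and 13.0 CPM and then 44.7, 28.6 and 29.1 CPM (log2 difference 1.45), and Irf2bp2 differed by 0.40. Ifnb1, the interferon gene that is usually induced through TRIF, had 0 counts in all 6 libraries. Of 13 ETS factors 3 rose with a median of 0.01, among them Ets2 (0.71) and Etv3 (0.24). Of 11 circadian factors 2 rose, Nfil3 (1.05) and Per1 (0.53).

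Transcripts that encode inhibitors of MAP kinases and of mRNA stability were also among the risers. Of 10 tested dual-specificity phosphatases 7 rose and 2 fell, with a median of 0.59. Dusp1, the nuclear phosphatase of p38 and JNK, measured 6.09, 5.94 and 6.04 CPM and then 127, 103 and 104 CPM, a log2 difference of 4.21 (SE 0.11, edgeR adjusted p = 1.83e-11). Dusp5, an ERK phosphatase with the paired CArG boxes above, measured 1.10, 1.09 and 1.17 CPM and then 7.48, 5.97 and 6.03 CPM (log2 difference 2.53). Dusp8 rose by 2.59, Dusp2 by 1.98, Dusp4 by 0.85 and Dusp3 by 0.19. Dusp6 and Dusp7, the cytoplasmic ERK phosphatases, had differences of −0.29 and −0.27, but the call of Dusp6 was lost without 30 min replicate 1 and that of Dusp7 when any of 4 single libraries was left out (0 min replicates 1 and 2, 30 min replicates 2 and 3).

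Of 16 genes of mRNA decay and deadenylation 8 rose and 0 fell, and 5 of them were called without 30 min replicate 1. Zfp36 encodes tristetraprolin, which binds AU-rich elements and directs cytokine mRNAs to decay. It measured 50.9, 55.5 and 45.7 CPM and then 550, 475 and 474 CPM, a log2 difference of 3.30 (SE 0.12), and added 449 CPM. Btg2, an anti-proliferative partner of the CCR4-NOT deadenylase whose promoter holds the CRE shown, went from 6.27, 4.71 and 6.39 CPM to 77.0, 61.9 and 65.7 CPM (log2 difference 3.55). Zc3h12a, the endonuclease Regnase-1, rose by 1.32 and Btg1 by 0.53.

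Of 14 SOCS, Spred and Sprouty genes 3 rose, with a median of 0.08. Socs3, an inhibitor of gp130 cytokine signalling, went from 8.87, 9.03 and 10.2 CPM to 99.3, 67.5 and 67.5 CPM (log2 difference 3.05), and Cish rose by 2.09. Of 12 inducible kinases and pseudokinases 8 rose, with a median of 0.46. Pim1 rose by 2.47, Plk2 by 2.36, Trib1 by 1.92, Sik1 by 0.79, Sgk1 by 0.69, Plk3 by 0.50 and Pim3 by 0.41. In the TGF-beta and BMP feedback list 3 of 9 rose, among them Skil (1.67) and Tgif1 (1.16), both corepressors of SMAD proteins.

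Of 24 tested cytokines and growth factors 15 rose and 0 fell, 13 of them by at least 2-fold, with a median of 1.64. Tnf was already present at 52.2, 46.5 and 43.8 CPM and reached 446, 279 and 298 CPM, a log2 difference of 2.85 (SE 0.14, edgeR adjusted p = 5.89e-09). Osm, an interleukin 6 family cytokine, went from 6.71, 5.24 and 5.58 CPM to 75.7, 60.1 and 62.7 CPM (log2 difference 3.50). The groups did not overlap for either gene. Il1a rose by 3.13, Gdf15 by 2.36, Il23a by 1.87, Tnfsf9 by 1.81, the receptor antagonist Il1rn by 1.48, Vegfa by 1.09 and Csf1 by 0.85. Other cytokine genes rose from almost no counts. Il6 had 3 counts over the unstimulated libraries and 69, 38 and 44 in the stimulated ones, Lif had 4 and then 74, 42 and 30, and Il10, an anti-inflammatory cytokine, had 9 and then 60, 32 and 42.

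Of 11 tested chemokines 6 rose and 0 fell, with a median of 0.62. Besides Cxcl2, Cxcl10, which attracts activated T cells, went from 1.72, 1.62 and 3.05 CPM to 33.7, 24.1 and 26.7 CPM (log2 difference 3.70, SE 0.18). Ccl4 rose by 1.46, Ccl7 by 1.37, Ccl2 by 0.83 and Ccl3 by 0.62. Of 23 cytokine receptors 7 rose, none of them by 2-fold, and the median was 0.07. Il10ra differed by 0.64, Csf2rb by 0.41 and Il10rb by 0.26. Csf1r, the receptor that maintains macrophages, was not called. Of 10 chemoattractant receptors 4 rose, among them Ccrl2 and the complement receptor C5ar1 (0.39).

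Regulators of G-protein and cAMP signalling gave 5 risers of 20, with a median of 0.01. Pde4b, which degrades cAMP, went from 14.0, 12.4 and 14.5 CPM to 92.4, 44.7 and 49.8 CPM (log2 difference 2.19), with replicate 1 well above the other stimulated libraries. Rgs1, which shortens chemokine receptor signals, measured 44.1, 46.8 and 46.0 CPM and then 118, 142 and 141 CPM (log2 difference 1.55), with replicate 1 the lowest. Rgs2 rose by 0.70, the prostaglandin receptor Ptger4 by 0.49 and Gpr84 by 0.36.

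Of 18 adhesion and costimulatory genes 9 rose and 0 fell, with a median of 0.38. Cd83 went from 23.4, 20.7 and 26.1 CPM to 125, 74.5 and 85.0 CPM (log2 difference 2.01), and the activation marker Cd69 rose by 4.30. Icam1, the ligand of leukocyte integrins, differed by 0.70, the plasma membrane proteoglycan Sdc4 by 0.65, Cd80 by 0.58, Cd274 (PD-L1) by 0.55 and Cd86 by 0.33. Of 10 tested genes of the plasminogen system and the matrix 7 rose, with a median of 1.24. Thbs1, thrombospondin 1, went from 0.293, 0.316 and 0.260 CPM to 9.05, 5.93 and 6.57 CPM (log2 difference 4.62). The macrophage elastase Mmp12 rose by 2.35, Adamts1 by 1.96, Plau by 0.59 and Plaur by 0.32.

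In the list of prostaglandin and leukotriene genes 1 of 10 rose. That gene was Ptgs2, the inducible cyclooxygenase, at 6.71, 9.17 and 5.81 CPM and then 97.6, 69.1 and 70.4 CPM (log2 difference 3.45, SE 0.15). Of 12 antimicrobial and metabolic effectors 8 rose, with a median of 0.58. Acod1, the enzyme that makes itaconate, rose by 3.20 from 1.5, 1.37 and 2.04 CPM to 23.0, 10.8 and 11.7 CPM, and Saa3 rose by 3.12. Hilpda, a lipid droplet protein, differed by 1.61, Gch1 by 0.66, the cystine transporter Slc7a11 by 0.60 and the mitochondrial dismutase Sod2 by 0.55.

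Survival and growth-arrest genes rose in 11 of 17 cases and fell in 0, with a median of 0.55. Mcl1, an anti-apoptotic BCL2 protein, was abundant at 445, 451 and 449 CPM and reached 724, 614 and 629 CPM (log2 difference 0.55, edgeR adjusted p = 4.82e-06). Its pro-apoptotic relative Bcl2l11 (BIM) rose in the same libraries from 71.7, 73.4 and 73.0 CPM to 248, 197 and 211 CPM (log2 difference 1.59), and the related Pmaip1 by 0.90. The list thus held risers of both kinds. The cell cycle inhibitor Cdkn1a rose by 2.28, Gadd45g by 1.26, Gadd45a by 0.87, Cflar by 0.69 and Mdm2 by 0.32. Of 21 small GTPase genes 9 rose, with a median of 0.14. Rhob, which controls actin and endosome traffic, went from 40.3, 43.8 and 40.9 CPM to 126, 119 and 125 CPM with little spread in either group (log2 difference 1.56, SE 0.04). Gem rose by 2.40, Rasgef1b by 1.13, Rab20 by 1.06, Arl4c by 0.85 and Rapgef2 by 0.74.

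Of 23 transcription elongation and chromatin regulators 5 rose, with a median of 0.06, and 3 rose without 0 min replicate 1 or 30 min replicate 2 or 3. Kdm6b, the H3K27 demethylase JMJD3, measured 32, 34.5 and 32 CPM and then 99.0, 69.2 and 72.7 CPM (log2 difference 1.29), and Ccnl1 rose by 0.55. Of 15 housekeeping and abundant genes 2 were called higher (1 when any library other than 0 min replicate 3 was left out), and the median was 0.06. Over the 37 lists of pathways and gene families other than the housekeeping one, 504 distinct genes were tested, of which 191 rose (37.9%, against 4.84% of all genes tested) and 15 fell. The lists were chosen with LPS biology and earlier results of these data in view, so this share is no independent evidence.

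**Figure D3:**
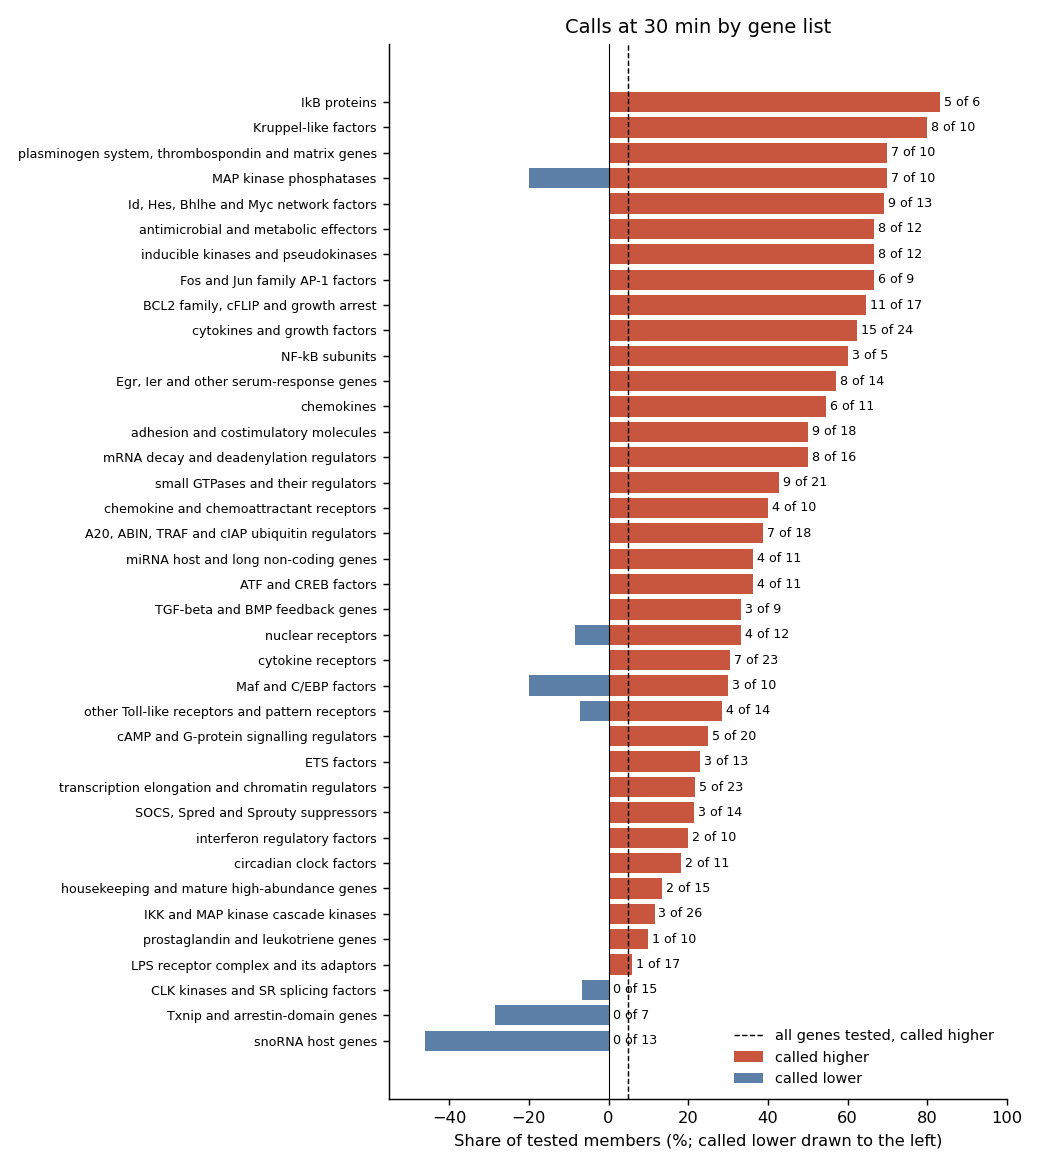
Share of the tested members of each gene list that was called higher (red, to the right) or lower (blue, to the left), in percent, with the number called higher of the number tested beside each bar. The dashed line at 4.84% is the share of all tested genes called higher, which the IkB proteins pass with 5 of 6 members and the LPS receptor complex about meets with 1 of 17.

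Non-coding transcripts also changed. Among called genes, the largest gain in CPM was that of Neat1, the scaffold RNA of nuclear paraspeckles, which measured 2769, 2547 and 2879 CPM at 0 min and 4065, 4015 and 4095 CPM at 30 min (log2 difference 0.57, SE 0.05). Mir155hg, the host transcript of miR-155, had 1, 0 and 1 counts and then 55, 22 and 26, a ratio of 51.4 with a 95% counting interval of 13.9 to 430 for the pooled counts. The mature product that the host transcript can yield is shown because miR-155 is a known regulator of inflammatory genes in macrophages, with its seed, bases 2 to 8, in capitals. It lies at chr16:84714143-84714165 on the plus strand of GRCm38.p6, as listed by RefSeq. The libraries did not measure the mature miRNA.
mmu-miR-155-5p: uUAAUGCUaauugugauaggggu

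Of the 201 risers past 2-fold 125 were coding and 76 were not. Of these 76 non-coding loci 31 (40.8%) overlapped a rising coding gene or lay within 10 kb of one, against 5.66% of the 2933 non-coding loci tested. Among the 50 non-coding loci lower by at least 2-fold, 3 (6.0%) did. The counting's strand setting is not given in the sources used here, so a locus that overlaps a gene on either strand could share its reads. E230013L22Rik, which overlaps Rab20 on the opposite strand, went from 0.513, 0.527 and 0.844 CPM to 7.23, 6.04 and 6.46 CPM (log2 difference 3.37), where Rab20 itself rose by 1.06.

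Loci annotated inside an intron of another gene on the same strand were set beside their host genes. Such loci made up 30 of the 76 risers and 27 of the 50 fallers, against 36.8% of all non-coding loci tested. Of the 30 risers, 15 lay in hosts called higher and 15 in hosts not called, and a host that held several loci was counted for each of them. Of all 1078 intronic loci tested, 55 lay in hosts called higher. The median log2 difference was 1.73 for the loci and 0.20 for the hosts. The loci were chosen for a called change of at least 2-fold and the hosts were not, so this gap follows from the choice. Over all 1078 intronic loci tested the medians were 0.004 for the loci and 0.025 for the hosts. Gm37084, in Mapkapk2, measured 26.9, 26.1 and 27.4 CPM and then 159, 128 and 142 CPM (log2 difference 2.42), against 0.16 for the host. Gm43430, in Nfkb1, rose by 1.62, against 0.02 for the host, whose own level is given above. Gm11737, in Cyth1, went from 0.513, 0.387 and 0.552 CPM to 3.81, 4.09 and 3.47 CPM (log2 difference 2.96) and had a mean of 0.639 CPM after 60 min.

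Of the 27 intronic fallers 0 lay in a host that was called, and of all 1078 intronic loci tested 1019 lay in hosts not called either. A host of several fallers was again counted for each of them. The median log2 difference was −1.34 for the fallers and 0.04 for their hosts, a gap that again follows from choosing the fallers by their change. These loci lay a median of 3.80 kb from the start of the host, against 37.0 kb for all intronic loci tested and 18.4 kb for the rising ones. The hosts also differed in length, with a median span of 40.8 kb for the fallers, 90.8 kb for the risers and 105 kb for all. Gm45203, in Idh2, measured 4.18, 4.46 and 4.38 CPM and then 0.664, 1.28 and 0.975 CPM (log2 difference −2.15, SE 0.19). Gm19721, in Gnai2, went from 5.13, 4.46 and 5.13 CPM to 1.05, 1.49 and 1.44 CPM (log2 difference −1.88). The groups did not overlap for either locus, nor for 474 of all 477 genes called lower, so this adds little to the call. Of the 27 fallers 15 were called higher at 60 than at 30 min, against 169 of all 1078 intronic loci, among them Gm44639, in Abhd2, with means of 1.65, 0.375 and 1.29 CPM at 0, 30 and 60 min. The 60 min comparison uses the same 30 min libraries, so the later rise is not independent of the earlier fall.

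**Figure D4:**
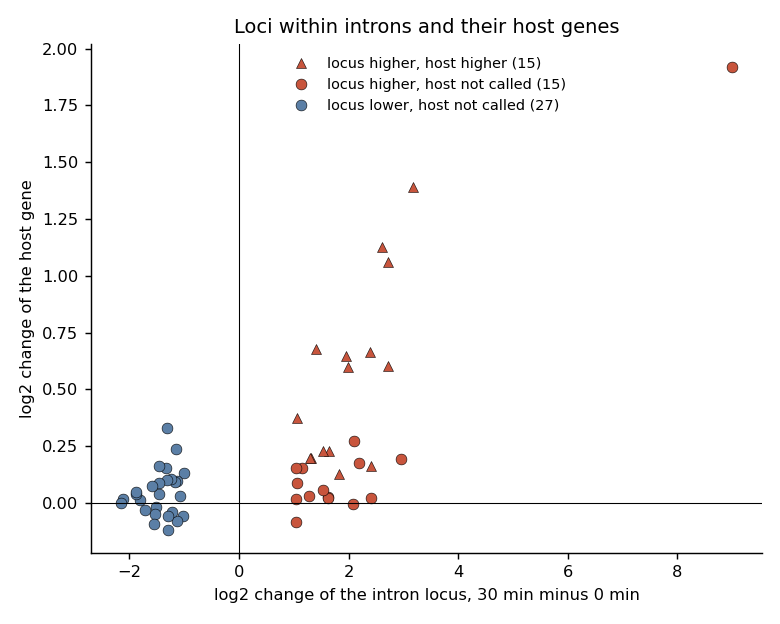
Log2 difference between 30 and 0 min of non-coding loci that changed by at least 2-fold and lie inside an intron (x axis) against that of the host gene (y axis), 1 point a locus. Of the 30 risers 15 lie in hosts called higher, against 55 of all 1078 intronic loci tested, and the hosts of the 27 fallers lie near zero. The loci were chosen for their change and the hosts were not. The point at the far right is Gm37347, which had 0 counts at 0 min, so that its fitted value depends on the prior count.

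Coding transcripts fell by less, with 266 called lower and 9 of these past 2-fold. The abundant member was Txnip, which encodes an arrestin-domain protein that limits glucose uptake. It measured 198, 184 and 201 CPM at 0 min and 79.3, 99.9 and 98.6 CPM at 30 min, with no overlap, and fell by 1.07 on the log2 scale (SE 0.07, edgeR adjusted p = 7.86e-08). Arrdc2 of the same family fell by 0.51. Of the 7 tested Txnip and arrestin-domain genes 2 fell, 0 rose and 5 were not called, with a median of −0.07. Hist2h3c1 measured 22.4, 24.5 and 24.3 CPM and then 2.59, 4.09 and 3.03 CPM (log2 difference −2.87), but replication-dependent histone genes have near-identical copies among which reads may be split, and 14 of 63 tested histone genes were called higher and 1 lower. Genes of the Zfp series of zinc finger factors were called lower 30 times and higher 10 times among 299 tested, with a median of −0.11 against 0.01 for all genes. Beside these arrestin-domain, histone and Zfp counts, 4.84% of all genes tested were called higher and 3.35% lower. Zfp930 went from 33.2, 33.5 and 33 CPM to 24.2, 22.3 and 24.3 CPM (log2 difference −0.49), and the zinc finger factor Zbtb26 fell by 0.60.

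Of 13 tested host genes of small nucleolar RNAs 6 fell, 0 rose and 7 were not called, with a median log2 difference of −0.40. Zfas1 measured 80.4, 88.2 and 86.6 CPM and then 49.6, 48.4 and 49.5 CPM, and fell by 0.79 (SE 0.05, edgeR adjusted p = 9.03e-08). Gas5, also a decoy of the glucocorticoid receptor, went from 175, 196 and 176 CPM to 134, 125 and 123 CPM and fell by 0.51. The groups did not overlap for either gene, as for 474 of the 477 genes called lower. Snhg5 fell by 0.68, Snhg20 by 0.65, Snhg12 by 0.53 and Snhg3 by 0.47. By annotated class, 36 of 220 processed transcripts were called lower (16.4%) and 17 of 140 sense intronic transcripts (12.1%), against 3.35% of all genes tested.

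The coding genes that changed were shorter than the tested coding genes in general. Those that rose by at least 2-fold had a genomic span of 8.20 kb in the median and a main transcript of 4 exons, against 23.3 kb and 9 exons for all tested coding genes. Genes called lower had a median of 12.6 kb and 5 exons, so a short span was not particular to the rises. At most 3 exons were found in 36.0% of the risers past 2-fold, in 21.4% of the genes called lower and in 12.8% of all. Among the examples, Ier2 and Jun have 1 exon, and Fos spans 3.38 kb in 4 exons. The AU-rich nonamer of unstable mRNAs occurred in the 3′ UTR of 40 of 123 of these genes with an annotated 3′ UTR (32.5%), against 1795 of 11173 tested coding genes (16.1%) and 17.7% of those called lower. The pentamer ATTTA occurred 2.75 times per kb of 3′ UTR in the rising set and 1.81 times per kb in all, counted on the sense strand and with the pentamers inside nonamers included. Tnf has 8 pentamers and 5 nonamers, Cxcl2 11 and 4, and Ptgs2 14 and 4. These shares are descriptions of the annotation and carry no test.

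The 30 min libraries differed among themselves in the levels of the rising genes. Replicate 1 was the highest of the 3 for 146 of the 201 risers past 2-fold (72.6%) and for 35.8% of all tested genes. The ratio of replicate 1 to the mean of replicates 2 and 3 had a median of 1.23 over the 201 genes and 1.00 over all. Against the mean at 0 min, the median difference of the 201 genes in log2(CPM + 0.1) was 1.90 in replicate 1, 1.52 in replicate 2 and 1.62 in replicate 3. The genes with the highest ratio were Il1a (26.8, 9.71 and 11.3 CPM in replicates 1, 2 and 3), Il1b, Gm43430, Traf1 (16.8, 7.80 and 8.38 CPM) and Acod1. Klf2, at 21, 23.5 and 22.4 CPM, and Rgs1 were among those with the lowest ratio. Whether this came from handling, timing or the cells was not tested. Without 30 min replicate 1, 529 genes were called higher and 322 lower, 179 and 50 of these past 2-fold.

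**Figure D5:**
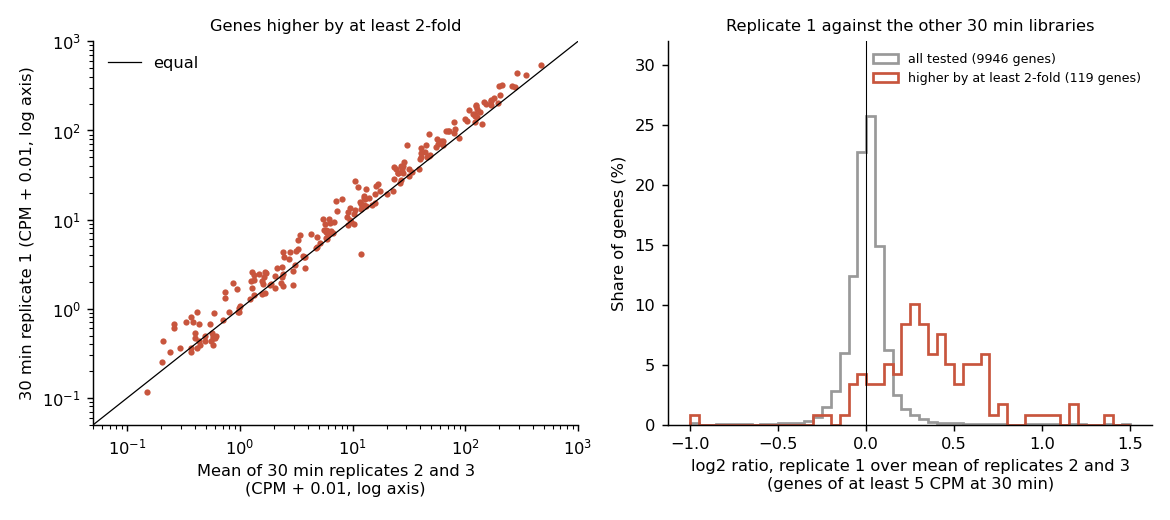
Left, level in 30 min replicate 1 against the mean of replicates 2 and 3 (both CPM + 0.01, log axes) for the 201 risers past 2-fold, with the line of equality; right, share of genes by log2 ratio of replicate 1 to that mean, for genes of at least 5 CPM at 30 min. The 119 rising genes (red) center right of zero with a median ratio of 1.25, while the 9946 tested genes (gray) center on zero.

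By 60 min, 95 of the 201 genes were called higher still than at 30 min, 33 were called lower and 73 gave no call. The 201 were chosen with the same 30 min libraries, so these counts are not independent of that choice. The share of all tested genes called in this later test is not given here. The authors' deposited table of the same comparison lists adjusted p-values for 14456 genes and calls 549 higher and 329 lower at 0.05. Of the genes called here, 516 of 689 higher and 309 of 477 lower were called there in the same direction, and 172 of the 201 and 35 of the 59 with at least 2-fold differences.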

How the data were processed

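RNA of 9 dishes was sequenced on ribosome-depleted, stranded libraries. The authors aligned to mm10 with STAR (2.7.0f) and made gene counts with RSEM (version 1.3.1), per the submitters' processing notes. These notes also name DESeq2, Picard (2.18.26), bcl2fastq (2.20) and cutadapt (1.18). The sources used here do not give the strand setting or the annotation release. The deposited values are expected counts per gene, and 5.04% to 5.32% of them were not whole, so they were rounded. The deposited log2 fold changes and p-values of the authors' table were used for comparison only; its mean normalized signal and its test score, made by the authors with DESeq2, were not used. Gene identifiers matched GENCODE M21 (GRCm38).

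edgeR 4.0.16 (R 4.3.3) was fitted to all 9 libraries with TMM scaling after filterByExpr (minimum count 10), contrasting 30 with 0 min; SEs are the log2 difference over the root of F, and p-values were adjusted by Benjamini-Hochberg over 14246 genes. CPM uses TMM-scaled totals. Exon counts and UTR motifs come from 1 principal transcript per gene. Each library's depth of 26867428 to 30402308 counts limits genes of few counts, and floors and counting intervals cover counting error only.

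Text names coding genes with the 20 largest rises (at least 5 CPM at 30 min) or falls (at least 5 CPM at 0 min), list members that were called (or abundant and not called), the 10 largest non-coding changes per direction, the 5 most and least replicate-dependent genes and the 10 largest gains and losses of CPM. E230013L22Rik, Gm37084, Gm43430, Gm11737, Gm19721, Gm44639 and Gm45203 serve as examples of positional classes, and some were chosen after their values were seen. Members and lists were chosen with earlier results of these data known. Alternatives were DESeq2 1.42.0 and its size factors, limma 3.58.1 (voom), total counts, other filters, a fold of 1.5, only the 0 and 30 min libraries, a replicate block and each library left out.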

Additional observations from a re-analysis of the deposited data

Results flagged for a closer look

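The change after 30 min ran in the opposite direction to the rise before it in 8 of the coding genes that rose by at least 2-fold, and in 33 such risers when non-coding loci are included, by edgeR's test of 60 against 30 min, which shares the 30 min libraries with the earlier comparison. Fos, the AP-1 subunit, had means of 7.28, 197 and 56.8 CPM at 0, 30 and 60 min and fell by 1.79 on the log2 scale in the later step. Rgs1, the regulator of G-protein signalling, had means of 45.6, 134 and 46.7 CPM and fell by 1.52, so that its 60 min libraries (44.4, 52.4 and 43.3 CPM) overlapped the unstimulated ones (44.1, 46.8 and 46.0 CPM). The later log2 differences were −0.72 for Klf2 (9.38, 22.3 and 13.6 CPM), −0.67 for Zfp36 (50.7, 499.5 and 314 CPM), −0.67 for Ier2 (15.1, 50.2 and 31.6 CPM) and −0.54 for Osm (5.84, 66.2 and 45.4 CPM). The ubiquitin ligase gene March4 had a difference of −0.93 (0.426, 1.52 and 0.799 CPM), and the fatty acid binding protein gene Fabp4 one of −0.39 (35.1, 85.5 and 65.3 CPM). Each of these 8 had a higher mean at 60 than at 0 min. Among the non-coding loci named, the later difference was −2.56 for Gm11737 and −0.61 for Gm37084. The counts of 8 and 33 stand without the share of all tested genes called in the later test, which is not given here. With 3 libraries per time, no check for single outlying libraries was made.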

How the results depend on the processing

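Among 330 named or listed genes that were called, 240 kept their call in every alternative that tested them, 90 lost it in at least 1 and 0 reversed. A gene had at most 14 alternatives. An alternative whose filter left a gene out was not counted for it, nor was the test against a fold of 1.5. Of 188 not called, 18 were called in at least 1. The counts of 689 higher and 477 lower became 551 and 649 when libraries were scaled by their totals alone. Genes lower numbered 757 with no filter, and those lower by at least 2-fold 121 with no filter and 23 with a minimum count of 50, against 59. Tested against a fold of 1.5, 180 genes were called higher and 28 lower. Leaving out each library gave 500 to 677 genes higher and 290 to 409 lower, 179 to 206 and 46 to 55 of them by at least 2-fold; the lower count was 290 without 0 min replicate 1, 310 without 30 min replicate 2 and 305 without 30 min replicate 3. Replicate 1 at 30 min was highest for 58.2% of all genes called higher and for 72.6% of those higher by at least 2-fold. Same-numbered libraries deviated from their group means with correlations of −0.02, 0.01 and 0.01, against −0.03 to 0.02 for libraries of unlike number. Correlations over all genes can miss a shared effect on part of them, so they cannot decide whether the numbers pair the samples. The replicate block gave 588 higher and 379 lower. Motif shares over gene sets were not run. Depth limits genes of few counts.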
